A study of Mus musculus with 8 samples.

Results

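The interferon response and antigen presentation genes are a named group of 45 genes that includes the interferon receptor chains, the transcription regulators that act below them, the effectors that interferons induce and the proteasome, transporter and light chain genes of class I antigen presentation. Members were found by name, as probe sets annotated with exactly 1 symbol that matches a member, with no threshold on a measured value. Of the 45 genes, 43 were measured, by 71 probe sets, among 18193 genes and 45037 probe sets in all. Isg15 and Ifi44 had none that matched them alone and were not analysed here.

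The cells were skeletal stem cells (SSCs) and the bone, cartilage and stromal progenitors (BCSPs) below them in the skeletal lineage, sorted from the callus of femoral fractures held by an intramedullary pin in male C57/Bl6 mice of 10 to 12 weeks. Both gates kept CD51+ cells and left out those with CD45, Ter119, Tie2, 6C3 or Thy1, SSCs were CD200+ and CD105-, and BCSPs were CD105+. Cells were sorted 10000 at a time with no culture, on day 7 after fracture by the sample labels, while the study's text gives a later day. Each of 4 experiments gave 1 SSC and 1 BCSP array, so n was 4 SSC and 4 BCSP arrays, numbered here by experiment, and the replicate number of the BCSP array of experiment 2 was taken from its description because its title carries another number. No unfractured bone or interferon-treated sample was analysed here, so every comparison is between the 2 populations of injured bone. Both populations shared the injury, the strain and the sex. Their gates differed in CD105, and CD200 was required of SSCs only.

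Type I interferons bind the receptor chains Ifnar1 and Ifnar2, and interferon gamma binds Ifngr1 and Ifngr2. Janus kinases on these chains phosphorylate STAT proteins, which enter the nucleus alone or together with Irf9 and bind 2 kinds of DNA element, the interferon-stimulated response element (ISRE) and the gamma-activated site (GAS). The induced proteins degrade, bind or sequester viral RNA, block viral entry, and raise the supply of peptides for class I antigen presentation. In bone, interferons are known mainly as brakes on osteoclast formation.

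The deposited value was an activity score. It places each probe set of an array against the same probe set in a large reference of public mouse arrays, with 0 as the threshold between inactive and active, -100 as the inactive end and 100 as the active end. A score is relative to the probe set's own range, so scores do not order the amounts of transcript of different genes, and differences are given in points rather than folds. A gene is called active on an array when its score is above 0. A bulk score cannot tell fewer expressing cells from less transcript per cell.

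Most of the interferon response genes scored on the inactive side in both populations. A score above 0 on all 8 arrays was found for 4 of 43 members (9.30%), against 25.0% of all genes, and on no array for 35 of 43 (81.4%), against 43.5% of all genes. The 4 active members were Ifnar2, Ifit2, Ifit3 and Trim25. Another 4 crossed the threshold on some arrays, namely Ifitm2 and B2m on 6 arrays, Eif2ak2 on 3 and Ifngr1 on 2. The mean score over the 8 arrays was under -50 for 25 of 43 members (58.1%), against 24.1% of all genes. The median of the member means was -56.9 in SSCs and -55.7 in BCSPs, while over all genes it was -18.7 in SSCs and -17.3 in BCSPs. These counts are descriptions and were not tested.

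**Figure D1:**
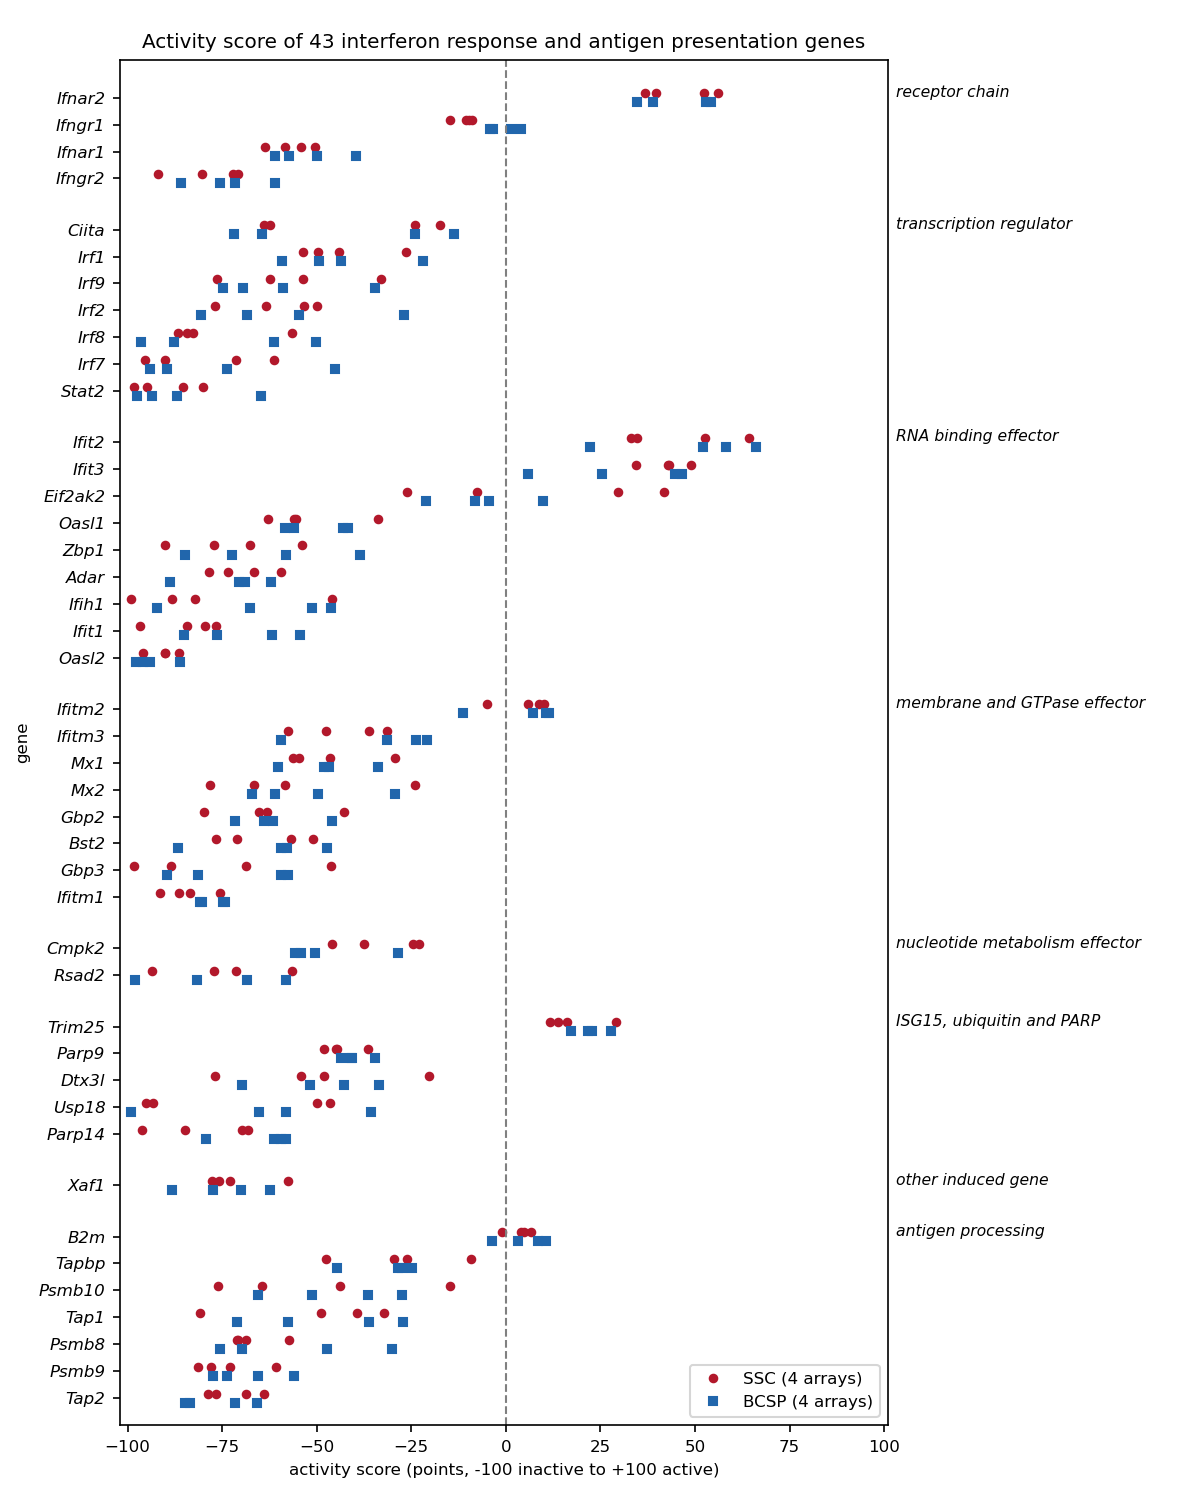
Activity score in points (horizontal axis) of each of the 43 measured genes, 1 row per gene, grouped by role, with 4 SSC arrays as red circles above 4 BCSP arrays as blue squares, and the threshold of 0 as a dashed line. All 8 points of Ifnar2, Ifit2, Ifit3 and Trim25 lie right of the line, and those of 35 genes lie left of it.

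As a yardstick, 35 genes of tissues other than bone, chosen as a silent reference, had a 95th percentile between -17.4 and -3.66 depending on the array. The members above that level on all 8 arrays were 5 of 43, namely B2m, Ifit2, Ifit3, Ifnar2 and Trim25, against 27.9% of all genes, and 34 of 43 were above it on no array, against 34.0% of all genes. Of the skeletal lineage markers, 7 of 7 measured genes were active on all 8 arrays, with array medians of 87.3 to 95.3 in SSCs and 86.0 to 94.5 in BCSPs.

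The comparison of SSCs with BCSPs asked whether interferon genes differ between the stem cell and its progeny. By limma with Benjamini-Hochberg adjustment over all 18193 genes, 0 of 43 members passed an adjusted p of 0.05, and so did 0 of all genes (0%). An unadjusted p under 0.05 was found for 0 of 43 members, against 2.56% of all genes. With the experiment as a block it was again 0 of 43, against 5.22% of all genes, and by the methods' t-test 1 of 43, against 2.42%. The SSC mean was the lower one for 28 of 43 members (65.1%), against 55.8% of all genes. The median difference, SSC minus BCSP, was -3.14 points over the members and -0.998 over all genes. Leaving out single arrays moved the members' value between -5.66 without SSC array 1 and 0.095 without BCSP array 2, where its sign turned, and it was -0.547 without SSC array 3, -0.993 without SSC array 4 and -1.69 without BCSP array 1. Within experiments 1 to 4 the members' median difference was 0.77, -3.50, -1.61 and -5.75 points, against 0.41, -1.44, -1.32 and -2.10 over all genes. SSC was lower in 4 of 4 experiments for 3 of 43 members (Ifngr1, Ifitm1 and Parp14, 6.98%), against 8.03% of all genes, and higher in 4 of 4 for 1 (Cmpk2, 2.33%), against 4.38%.

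The precision of each comparison was set by 4 arrays a group. The 95% interval of a member's difference reached 24.01 points to either side at the median over members, and between 12.1 points for Oasl2 and 39.0 points for Eif2ak2. A difference smaller than that reach could not be told from 0, and its size is bounded only by its interval. The intervals are not adjusted for the number of genes, so a difference beyond them need not pass adjustment. The endothelial gene Robo4, at -39.5 points, did not pass it. The replicates come from separate experiments, and the study's figure legend names different mice.

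**Figure D2:**
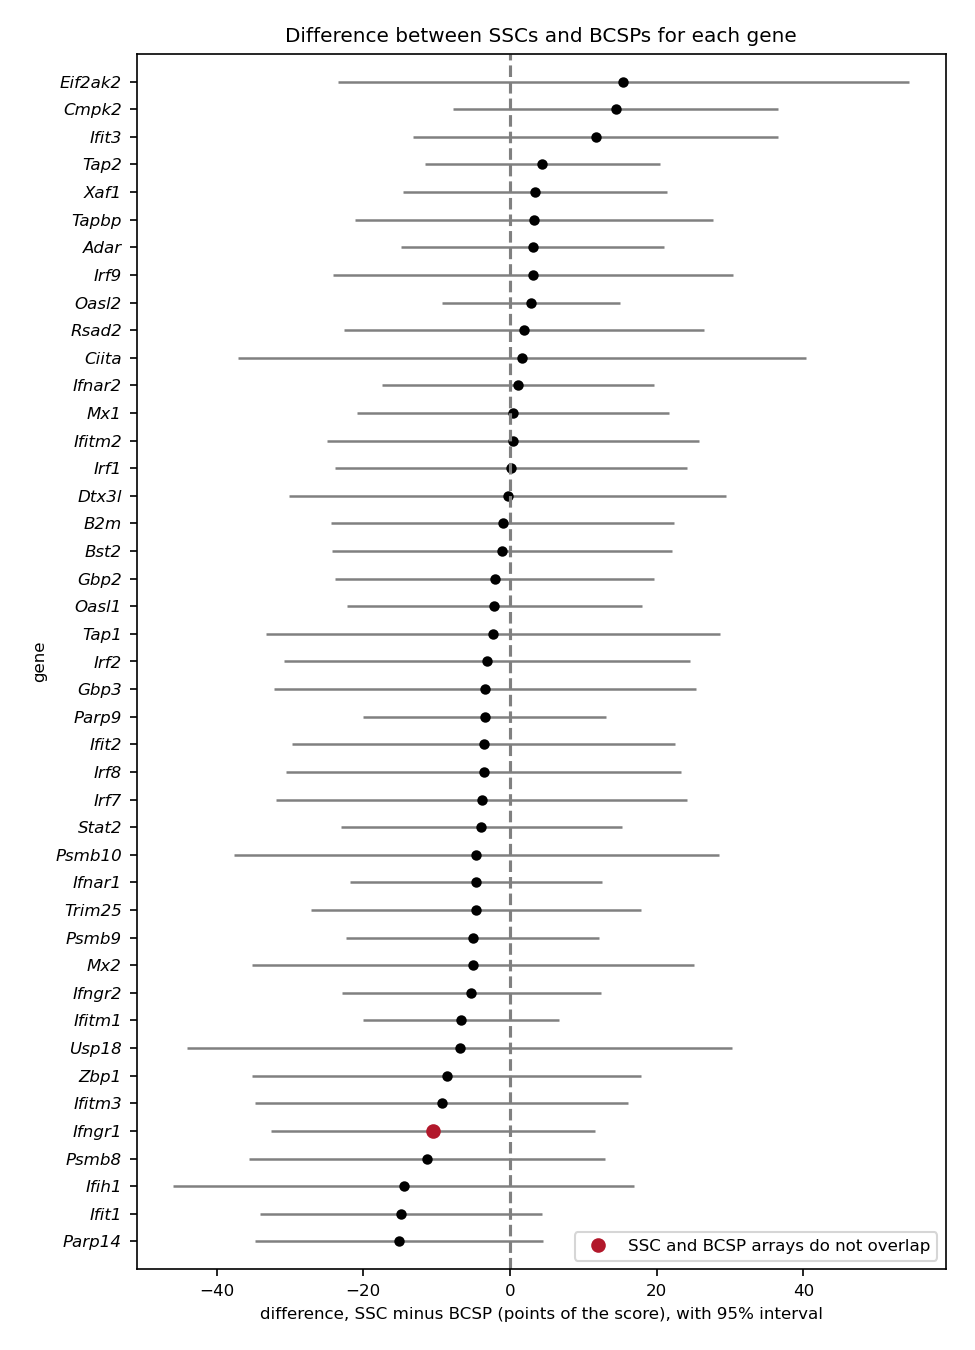
Difference of the activity score in points, SSC minus BCSP (horizontal axis), for each of the 43 genes, with the 95% interval of the limma fit as a grey line. Every interval crosses 0, and Ifngr1, in red, is the gene whose SSC and BCSP arrays did not overlap.

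The receptor chains spanned most of the range of the group. Ifnar2, the signalling chain that binds type I interferons most tightly, scored 39.6, 52.3, 56.2 and 36.7 on SSC arrays 1 to 4, against 34.7, 52.9, 54.2 and 38.8 on BCSP arrays 1 to 4. The populations overlapped, and experiments 2 and 3 gave the high scores in both. The mean was 46.2 ± 9.51 in SSCs and 45.1 ± 9.84 in BCSPs (SD, n = 4 each), with a difference of 1.03 points (SE 8.17, limma adjusted p = 1). This rests on 1 of 3 probe sets, since the other 2 Ifnar2 probe sets had means of -45.0 and -64.2, a spread of 109.8 points and the widest of any member.

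Ifnar1, the partner chain, scored -50.4, -63.6, -54.3 and -58.3 on SSC arrays 1 to 4 and -49.99, -39.7, -61.0 and -57.4 on BCSP arrays 1 to 4. All 8 arrays lay below the threshold and the populations overlapped. Its difference was -4.63 points (SE 7.57, limma adjusted p = 1), and its second probe set was lower still, with a mean of -86.7.

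Ifngr1, the ligand-binding chain for interferon gamma, was the only member by its main probe set whose arrays did not overlap between populations, against 1.34% of all genes. It scored -8.89, -9.84, -10.6 and -14.8 on SSC arrays 1 to 4, against -3.31, 1.23, -4.20 and 4.12 on BCSP arrays 1 to 4. Every SSC array lay below every BCSP array and below the threshold, and 2 of 4 BCSP arrays lay above it. All SSC arrays were below all BCSP arrays for 0.797% of all genes. The mean was -11.0 ± 2.62 in SSCs and -0.54 ± 3.91 in BCSPs (SD, n = 4 each), a difference of -10.5 points (SE 9.76, 95% interval -32.6 to 11.7). The exact two-sided permutation test gave p = 0.0286, the smallest that 70 assignments of 4 against 4 arrays allow and the value that any full separation gives, and with exchange only between the arrays of an experiment the exact p was 0.125, which 4 pairs cannot go below. The limma fit, which borrows the spread of other genes at that level, gave an adjusted p = 1, so the difference did not pass the test over all genes. Unadjusted, limma gave p = 0.311 and the methods' t-test p = 0.00428 (adjusted p = 1), beside the exact p above. With each array centred on its median, the Ifngr1 arrays overlapped and the difference was -10.1 points.

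Ifngr2, the second chain for interferon gamma, scored -72.2, -70.7, -91.9 and -80.4 on SSC arrays 1 to 4 and -61.1, -71.6, -85.9 and -75.7 on BCSP arrays 1 to 4. It was the lowest of the 4 chains by its mean of -76.2, with overlapping populations and the lowest score of each in experiment 3. In order of score by the main probe sets, the receptors ran Ifnar2, Ifngr1, Ifnar1, Ifngr2. The arrays of neighbours in this order did not overlap except those of Ifnar1 and Ifngr2.

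No transcription regulator was active on any array. The 7 genes were Irf1, Irf2, Irf7, Irf8, Irf9, Stat2 and Ciita, their means ran between -87.8 and -42.7, and their median was -60.8 in SSCs and -59.4 in BCSPs. Ciita, the master activator of class II genes, had the highest mean of them. It scored -63.8, -17.4, -62.3 and -24.1 on SSC arrays 1 to 4, against -13.6, -24.1, -72.0 and -64.5 on BCSP arrays 1 to 4. The scores split widely within both populations and the difference of 1.64 points (SE 17.1) was far inside that spread.

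A second Ciita probe set, singled out after its values were seen, did not overlap between populations while the main one did. It scored -26.8, -28.6, -44.0 and -36.0 on SSC arrays 1 to 4, against -60.7, -45.3, -66.3 and -47.2 on BCSP arrays 1 to 4. All SSC arrays were above all BCSP arrays, although every one was below the threshold, with a difference of 21.0 points and a limma adjusted p = 1 over all probe sets. In the fit over all 45037 probe sets, 2 of 71 member probe sets did not overlap between populations, those of Ifngr1 and Ciita, against 1.43% of all probe sets, and none passed adjustment, against 0%.

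Stat2, which joins Irf9 in the complex that binds the ISRE, had the lowest mean of the regulators. It scored -85.5, -95.0, -98.2 and -80.2 on SSC arrays 1 to 4 and -97.6, -87.1, -93.7 and -64.8 on BCSP arrays 1 to 4. The populations overlapped, and only 0.753% of all genes had a lower mean. Irf7, which amplifies type I interferon production, scored -61.4, -71.2, -95.3 and -90.1 in SSCs and -45.2, -94.2, -89.5 and -73.8 in BCSPs. Its experiment means ranged over 39.1 points, with experiment 1 highest in both populations.

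The RNA binding effectors held the highest and the lowest member of the whole group. Ifit2, a tetratricopeptide protein that binds viral RNA, scored 52.5, 34.6, 64.2 and 33.0 on SSC arrays 1 to 4, against 22.2, 52.2, 66.1 and 58.2 on BCSP arrays 1 to 4. It was active on every array, and 80.9% of all genes had a lower mean. Ifit3, its interaction partner, scored 42.8, 43.2, 48.9 and 34.3 on SSC arrays 1 to 4, against 5.77, 44.8, 46.5 and 25.4 on BCSP arrays 1 to 4. The populations overlapped for both genes, and the difference was -3.58 points for Ifit2 (SE 11.5) and 11.7 points for Ifit3 (SE 11.0), each with a limma adjusted p = 1.

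Ifit1, the third tetratricopeptide gene and a sensor of foreign RNA caps, stood at the other end. It scored -84.2, -76.7, -79.6 and -96.7 on SSC arrays 1 to 4, against -85.0, -61.9, -54.5 and -76.4 on BCSP arrays 1 to 4. All 8 arrays were below the threshold, and SSC was lower in 3 of 4 experiments. With -84.3 ± 8.80 in SSCs and -69.5 ± 13.8 in BCSPs (SD, n = 4 each), Ifit1 had the smallest unadjusted limma p among the members, 0.114, for a difference of -14.8 points (SE 8.47, adjusted p = 1, exact permutation p = 0.171). Without the BCSP array of experiment 1, the only BCSP array below any SSC array, its unadjusted limma p was 0.0430 and its arrays by construction no longer overlapped. Its lowest adjusted p over all alternatives was 0.928.

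The promoters of these 3 genes are shown because the genes lie in the same stretch of chromosome 19, are all classical interferon targets, and scored at opposite ends of the range. Each window runs from 250 bases before to 50 after a RefSeq start (GRCm38.p6), and capitals mark the ISRE letters, GAAA and GAAA with any 2 bases between them, read on either strand.
Ifit1, chr19:34640639-34640938, plus strand: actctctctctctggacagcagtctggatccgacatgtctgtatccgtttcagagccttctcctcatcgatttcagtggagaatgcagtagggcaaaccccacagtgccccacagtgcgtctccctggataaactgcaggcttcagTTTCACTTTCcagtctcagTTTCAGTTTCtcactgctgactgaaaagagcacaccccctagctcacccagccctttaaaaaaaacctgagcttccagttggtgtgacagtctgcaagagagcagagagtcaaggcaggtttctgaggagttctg
Ifit2 start 1, chr19:34550444-34550743, plus strand: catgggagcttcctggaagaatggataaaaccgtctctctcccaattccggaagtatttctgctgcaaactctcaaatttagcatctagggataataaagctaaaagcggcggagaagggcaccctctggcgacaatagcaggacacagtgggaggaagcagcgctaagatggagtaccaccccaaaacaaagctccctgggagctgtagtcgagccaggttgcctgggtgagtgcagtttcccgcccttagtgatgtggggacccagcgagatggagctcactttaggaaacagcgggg
Ifit2 start 2, chr19:34550838-34551137, plus strand: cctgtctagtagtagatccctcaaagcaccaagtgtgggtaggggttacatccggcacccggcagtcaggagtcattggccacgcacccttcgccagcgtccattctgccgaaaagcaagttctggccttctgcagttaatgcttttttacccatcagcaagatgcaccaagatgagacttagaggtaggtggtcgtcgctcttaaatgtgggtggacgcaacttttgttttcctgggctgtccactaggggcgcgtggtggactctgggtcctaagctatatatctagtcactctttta
Ifit3, chr19:34583279-34583578, plus strand: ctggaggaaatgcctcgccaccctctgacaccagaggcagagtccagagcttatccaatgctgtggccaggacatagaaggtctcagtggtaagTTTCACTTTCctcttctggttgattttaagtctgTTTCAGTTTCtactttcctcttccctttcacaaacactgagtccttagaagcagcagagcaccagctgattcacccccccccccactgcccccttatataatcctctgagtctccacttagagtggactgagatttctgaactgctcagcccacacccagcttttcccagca
Ifit1 and Ifit3 carried the same pair of matches, TTTCACTTTC followed by TTTCAGTTTC, which start 104 and 85 bases before the Ifit1 start and 156 and 122 bases before the Ifit3 start. Neither Ifit2 window held those letters, which says nothing about other spellings or positions. Ifit3 was active on all 8 arrays and Ifit1 on none, so genes with these same letters lay on either side of the threshold.

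Over the group, promoters were matched for 37 of 45 members (44 windows). Parp14, Mx2, Tap2, Parp9, Zbp1, Usp18, Ciita and Mx1 were not matched. The ISRE letters were in 14 of 44 member windows (31.8%), against 3.44% of the 32851 windows of all genes, and the GAS letters TTCNNNGAA, also on either strand, in 11 of 44 (25.0%), against 8.30%. The windows with ISRE letters belonged to Ifih1, B2m, Gbp2, Gbp3, Isg15, Ifitm2, Ifitm3, Irf2, Bst2, Stat2, Rsad2, Eif2ak2, Ifit1 and Ifit3. An ISRE and a GAS match overlapped in 2 member windows, and 2 ISRE matches overlapped in 3. Of the 13 measured genes with ISRE letters, 1 was active on all 8 arrays and 9 on no array, with a median score of -61.8. Of the 22 measured genes whose windows lacked them, 3 were active on all 8 arrays and 18 on no array, with a median of -52.6.

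Eif2ak2, the double-stranded RNA kinase PKR, straddled the threshold. It scored 29.6, -7.69, -26.0 and 41.8 on SSC arrays 1 to 4, against -4.58, -21.2, 9.71 and -8.10 on BCSP arrays 1 to 4. SSC arrays 1 and 4 were the highest, the populations overlapped, and the difference of 15.4 points was within the spread (SE 17.2). The other Eif2ak2 probe sets had means of -84.8 and -94.4. Oasl2, a member of the oligoadenylate synthetase family, had the lowest mean of all members, -92.0, with 0.280% of all genes below it. It scored -90.1, -95.9, -90.1 and -86.4 on SSC arrays and -86.1, -96.0, -97.7 and -94.1 on BCSP arrays, an overlap with no array above -86. The remaining genes of this role, the RNA sensor Ifih1, the RNA editor Adar, the nucleic acid sensor Zbp1 and Oasl1, were active on no array and had means between -71.6 and -50.9.

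Of the membrane and GTPase effectors, 7 of 8 were active on no array. Ifitm2, which hinders fusion of viruses with endosomes, scored 8.77, 9.97, -4.97 and 5.74 on SSC arrays 1 to 4 and 10.7, 7.11, -11.3 and 11.5 on BCSP arrays 1 to 4. It was above the threshold in experiments 1, 2 and 4 and below it in experiment 3 in both populations. Ifitm1, its neighbour, had the lowest mean of the role, -80.8. It scored -86.4, -75.5, -83.4 and -91.4 in SSCs and -80.2, -74.8, -74.1 and -80.8 in BCSPs. The populations overlapped, although SSC was lower in 4 of 4 experiments, with a difference of -6.65 points (SE 5.88, limma adjusted p = 1, exact permutation p = 0.114). Ifitm3, the interferon-induced member beside them, averaged -38.6, while Bst2, which tethers budding virus to the cell surface, the dynamin-like GTPases Mx1 and Mx2 and the guanylate-binding proteins Gbp2 and Gbp3 had means between -73.7 and -46.9.

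The nucleotide metabolism pair, Rsad2 and Cmpk2, lies side by side on the chromosome. Rsad2, or viperin, which makes a chain-terminating nucleotide, scored -56.5, -77.1, -93.5 and -71.4 in SSCs and -98.1, -68.4, -81.7 and -58.2 in BCSPs. Its populations overlapped, and SSC was lower in 3 of 4 experiments but higher by 41.6 points in experiment 1. The Rsad2 difference was 1.94 points (SE 10.8). Cmpk2, a mitochondrial nucleotide kinase, scored -46.0, -22.9, -37.5 and -24.6 on SSC arrays 1 to 4, against -50.3, -28.6, -55.7 and -54.1 on BCSP arrays 1 to 4. The groups overlapped through BCSP array 2, and SSC was higher in 4 of 4 experiments. Its mean was -32.8 ± 11.0 in SSCs and -47.2 ± 12.6 in BCSPs (SD, n = 4 each), a difference of 14.4 points (SE 9.77, limma p = 0.175, adjusted p = 1, exact permutation p = 0.143), and the other Cmpk2 probe set differed by 1.30 points.

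Among the genes of ISG15 conjugation, ubiquitin and ADP-ribosylation, Trim25 was the active one. This E3 ligase, which ubiquitinates the RNA sensor RIG-I and also conjugates ISG15, scored 29.2, 11.7, 13.8 and 16.2 on SSC arrays 1 to 4, against 21.7, 17.3, 27.9 and 22.7 on BCSP arrays 1 to 4. The populations overlapped through SSC array 1, and 2 of its 3 probe sets were active on all 8 arrays, with means of 20.1 and 10.6, while the other averaged -49.2. Without SSC array 1 the Trim25 arrays no longer overlapped by the main probe set. This follows by construction, since that was the only SSC array above any BCSP array.

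Parp14, an ADP-ribosyltransferase, was the lowest of this role. It scored -69.7, -68.1, -84.7 and -96.2 on SSC arrays 1 to 4, against -61.4, -59.5, -58.0 and -79.3 on BCSP arrays 1 to 4. SSC was lower in 4 of 4 experiments and the groups overlapped through BCSP array 4. The difference was -15.1 points (SE 8.64, limma p = 0.115, adjusted p = 1, exact permutation p = 0.143), the most negative of any member by its main probe set. The other Parp14 probe set differed by -5.49 points and was lower in SSCs in 2 of 4 experiments. Its neighbours Dtx3l, a ubiquitin ligase, and Parp9, the partner of Dtx3l, averaged -49.7 and -41.7, with differences of -0.32 and -3.46 points.

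Usp18, the protease that removes ISG15 and also damps the type I receptor, had the widest range over experiments of any member, 56.1 points. It scored -49.99, -46.6, -93.4 and -95.2 on SSC arrays 1 to 4, against -58.0, -35.6, -65.2 and -99.1 on BCSP arrays 1 to 4. Both populations were higher in experiments 1 and 2 than in experiments 3 and 4. Xaf1, an interferon-induced gene known as an antagonist of the apoptosis inhibitor XIAP, scored -57.7, -77.7, -72.9 and -75.8 in SSCs and -77.5, -62.2, -88.1 and -69.9 in BCSPs, with overlapping populations.

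In antigen processing, B2m alone reached the threshold. B2m, the light chain of every class I molecule, scored 6.54, 4.80, -0.93 and 4.03 on SSC arrays 1 to 4, against 3.11, 10.5, -3.61 and 8.48 on BCSP arrays 1 to 4. It was above the threshold in experiments 1, 2 and 4 and below it in experiment 3 in both populations, and its difference was -1.005 points (SE 10.3). This is the pattern over experiments that Ifitm2 showed, and experiment 3 was the lowest for 39.9% of all genes. The windows of B2m and Ifitm2 are shown because of the shared pattern, and each carried 1 match to the ISRE letters. Ifit3, with 2 matches, had its highest experiment mean in experiment 3, 47.7. A link between the letters and the pattern was not tested.
B2m, chr2:122147437-122147736, plus strand: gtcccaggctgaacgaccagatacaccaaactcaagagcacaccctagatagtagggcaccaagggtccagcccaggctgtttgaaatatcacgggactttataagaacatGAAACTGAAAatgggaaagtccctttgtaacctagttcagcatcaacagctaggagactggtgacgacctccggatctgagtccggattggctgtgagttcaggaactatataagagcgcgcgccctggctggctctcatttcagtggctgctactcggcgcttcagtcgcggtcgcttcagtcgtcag
Ifitm2, chr7:140955912-140956211, minus strand: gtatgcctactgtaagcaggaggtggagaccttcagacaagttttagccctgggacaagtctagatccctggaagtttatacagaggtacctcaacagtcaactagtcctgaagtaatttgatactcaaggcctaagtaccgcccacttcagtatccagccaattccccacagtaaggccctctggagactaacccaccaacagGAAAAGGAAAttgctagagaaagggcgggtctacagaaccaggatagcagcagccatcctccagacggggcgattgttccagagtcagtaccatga
The match starts 139 bases before the B2m start and 46 bases before the Ifitm2 start. The Ifngr1 window, given because Ifngr1 was the member whose arrays did not overlap, held no match to either motif.
Ifngr1, chr10:19591699-19591998, plus strand: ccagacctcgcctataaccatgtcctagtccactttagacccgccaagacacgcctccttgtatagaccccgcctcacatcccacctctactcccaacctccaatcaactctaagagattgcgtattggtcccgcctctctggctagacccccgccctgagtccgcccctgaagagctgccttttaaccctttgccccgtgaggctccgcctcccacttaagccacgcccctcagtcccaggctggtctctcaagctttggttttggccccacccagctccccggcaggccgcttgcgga

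The inducible proteasome subunits and the peptide transporter were inactive on every array. Psmb8, Psmb9 and Psmb10 replace the constitutive catalytic subunits in the immunoproteasome, and they had means of -61.3, -70.7 and -47.5. Tap1 and Tap2 carry peptides into the endoplasmic reticulum and averaged -49.1 and -74.2, and Tapbp, tapasin, which bridges transporter and class I chain, averaged -29.7. Tap2, the lowest of the role, scored -68.7, -63.9, -76.7 and -78.7 in SSCs and -65.9, -71.6, -84.7 and -83.4 in BCSPs, with overlapping populations.

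Tap1 and Psmb10 varied over the experiments by more than the populations differed, which was not particular to them. Over all members the range of experiment means had a median of 22.8 points, while differences between populations ran from -15.13 to 15.45 points. A range over 4 means also tends to be wider than a difference of 2 means. Tap1 scored -32.2, -39.3, -80.8 and -48.8 on SSC arrays 1 to 4, against -27.2, -36.3, -71.0 and -57.5 on BCSP arrays 1 to 4. Psmb10 scored -14.9, -43.8, -76.0 and -64.5 on SSC arrays 1 to 4, against -36.4, -27.3, -65.6 and -51.4 on BCSP arrays 1 to 4. For both genes experiment 3 was the lowest in both populations, and the experiment means ranged over 46.2 points for Tap1 and 45.2 for Psmb10, while the populations differed by -2.30 points (SE 13.6) and -4.62 points (SE 14.6). A further Tap1 probe set was the only one of 71 with an unadjusted p under 0.05, against 2.40% of all probe sets, with a difference of 31.3 points (limma p = 0.0239 and adjusted p = 1, exact permutation p = 0.0571), and another Tap1 probe set differed by -28.2 points, so the 4 Tap1 probe sets did not share a direction.

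The low scores in experiment 3 were not confined to a few genes. By experiment the median over members was -53.0, -51.9, -65.2 and -57.9 in experiments 1 to 4, against -12.9, -16.3, -25.3 and -18.2 over all genes. Experiment 3 was the lowest for 18 of 43 members (41.9%), against 39.9% of all genes, and experiment 1 the highest for 18 of 43 (41.9%), against 36.8%. The score of the 3' control probe set of actin minus that of the 5' one was 59.6 points for the SSC array of experiment 3. It was 64.9 points for its BCSP array and between 23.1 and 44.2 on the other arrays. The same measure for Gapdh did not set experiment 3 apart, with 54.7 points on its SSC array and 49.1 on its BCSP array, against 53.9 on the SSC array and 71.9 on the BCSP array of experiment 4. Each control score is relative to its own probe set, so these differences are not ratios of 3' to 5' signal and do not measure RNA length. The part of RNA length in the scores of the members was not tested.

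**Figure D3:**
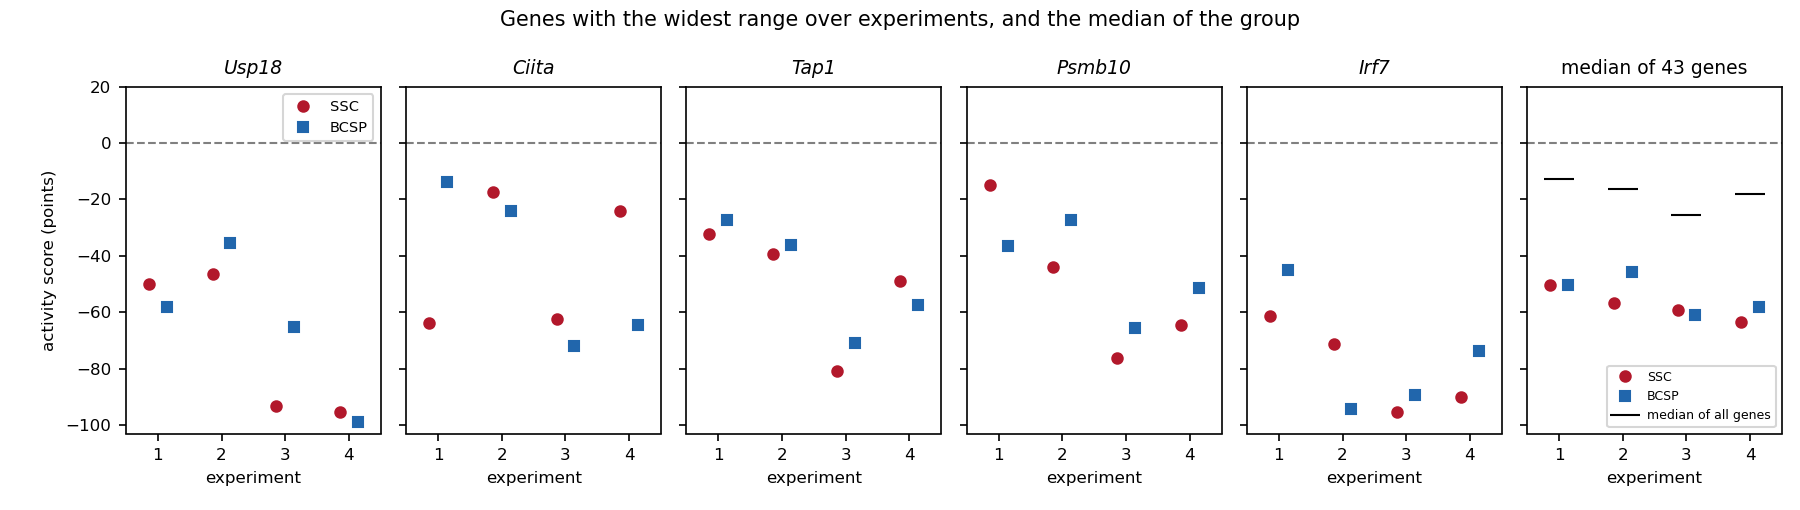
Activity score in points (vertical axis) by experiment (horizontal axis) for the 5 genes with the widest range of experiment means, and for the median of the 43 genes, with SSC arrays as red circles left of BCSP arrays as blue squares. Usp18 separates experiments 1 and 2 from 3 and 4, Tap1 and Psmb10 are lowest in experiment 3, and the median of the 43 genes lies below the median of all genes (black bars) in every experiment.

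Genes of the same pathways outside the group were read from lists of their own. Of the 33 measured genes of a list of further interferon-induced genes, 3 scored above 0 on all 8 arrays and 28 of 33 on none. Its highest gene was Ifi27, a small hydrophobic membrane protein, with 66.6 ± 8.73 in SSCs and 74.4 ± 6.26 in BCSPs, followed by Samhd1, a dNTP hydrolase, with 50.4 ± 9.99 in SSCs and 49.7 ± 11.1 in BCSPs (SD, n = 4 each). Of 5 measured interferon genes, 0 were active on all 8 arrays, and Ifnb1, interferon beta, was the highest, with 22.9 ± 43.9 in SSCs and 6.97 ± 35.6 in BCSPs and 4 of 8 arrays above 0.

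The lists of signalling, sensing and peptide supply were mixed. In the list of signal transduction and feedback, 4 of 10 measured genes were active on all 8 arrays, led by Socs3, an inhibitor of cytokine receptors, with 89.7 ± 6.93 in SSCs and 88.2 ± 2.59 in BCSPs. Of 10 nucleic acid sensing genes 1 was active on all 8 arrays, Mavs, the mitochondrial adaptor of RNA sensors, and the kinase Tbk1 had the highest mean, 25.1. Among class I chains, loading and trimming genes 3 of 11 were active, led by the chaperone Canx, calnexin, with 90.8 ± 5.90 in SSCs and 91.3 ± 7.81 in BCSPs. The constitutive proteasome subunit Psmb6, which Psmb9 replaces, scored 66.8 ± 23.8 in SSCs and 71.8 ± 25.2 in BCSPs, and Psmb5, which Psmb8 replaces, 46.4 ± 30.2 in SSCs and 42.7 ± 32.0 in BCSPs, while Psmb7, which Psmb10 replaces, was below the threshold on all 8 arrays with a mean of -49.3.

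Of 9 class II presentation genes 4 scored above 0 on all 8 arrays and 5 on no array. Rfxap, a general subunit of the class II promoter complex, was the highest, with 95.5 ± 0.76 in SSCs and 96.1 ± 3.14 in BCSPs (SD, n = 4 each), and H2-Ab1, a class II beta chain, was active by 1 of 3 probe sets. Cd74, the invariant chain, averaged -52.2 in SSCs and -61.9 in BCSPs and was active on no array. No gene of these lists passed an adjusted p of 0.05 between SSCs and BCSPs. An unadjusted limma p under 0.05 was found for 2 of 33 genes of the further induced list, against 2.56% of all genes. They went opposite ways, Pml by -21.8 points and Ddx60 by 26.2 points, SSC minus BCSP.

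**Figure D4:**
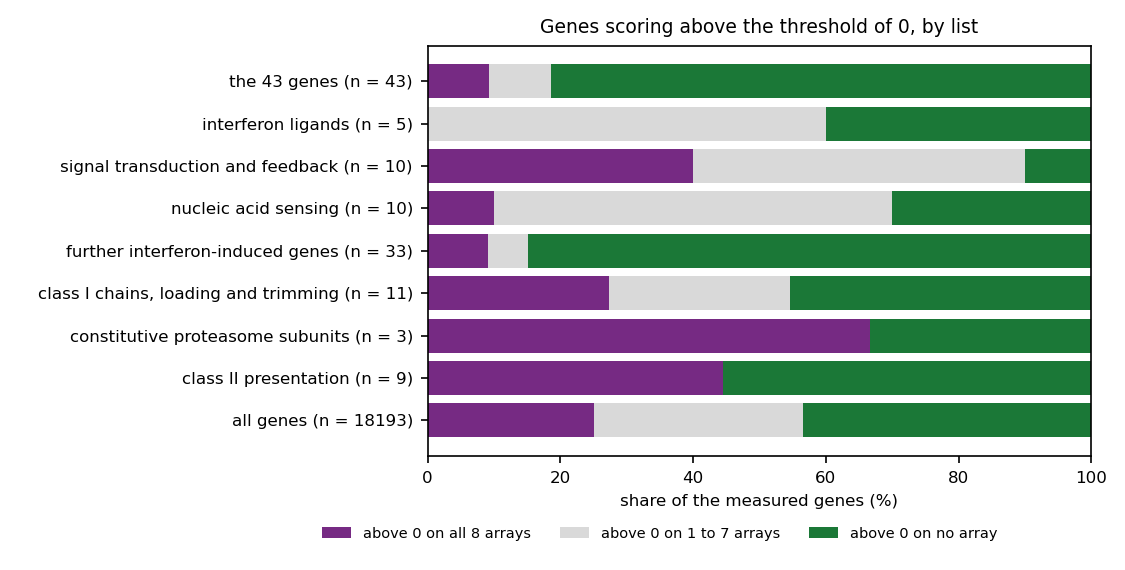
Share of the measured genes (horizontal axis, %) that scored above 0 on all 8 arrays (purple), on some (grey) and on none (green) for the 43 genes, 7 other lists of the same pathways and all 18193 genes. The 43 genes and the further interferon-induced genes have the widest green part, with 35 of 43 and 28 of 33 genes above 0 on no array.

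Blood cells, which express many of these genes, were gated out by CD45 and Ter119, and endothelial cells by Tie2. Of the markers measured, 0 of 13 macrophage, 0 of 7 dendritic cell, 0 of 9 neutrophil and 0 of 5 pan-leukocyte genes were active on all 8 arrays. In the macrophage list Laptm5, by the highest of its 5 probe sets, scored 73.9, 53.1 and 40.7 on SSC arrays 2 to 4. It was below 0 on SSC array 1 and on every BCSP array. In the dendritic cell list Zbtb46 was above 0 on 2 BCSP arrays. The macrophage list had array medians between -71.8 and -63.3 in SSCs and between -78.5 and -53.0 in BCSPs, and the pan-leukocyte list between -90.6 and -56.6 in SSCs and between -66.9 and -53.2 in BCSPs. Ptprc, which encodes CD45, averaged -42.0 ± 10.6 in SSCs and -37.8 ± 2.83 in BCSPs (SD, n = 4 each). Of 11 lymphocyte genes 1 was active, Cd8a, by 1 of its 5 probe sets. Of 4 erythroid genes 0 were active on all 8 arrays, while Hba-a1, a globin chain, was above 0 on 5. Of 11 endothelial genes 10 scored above 0 on no array and 0 did so throughout, and the list's array medians lay between -79.5 and -65.5 in SSCs and between -70.2 and -42.7 in BCSPs. The endothelial median was -74.7 in SSCs and -54.0 in BCSPs. An unadjusted limma p under 0.05 was found for 3 of 11 endothelial genes, against 2.56% of all genes and 3 of 35 silent reference genes. These endothelial genes all scored lower in SSCs, namely Robo4 (-39.5 points), Emcn (-32.6) and Eng (-58.4), which encodes the CD105 of the gates. Cdh5 (28.6 points) and Pecam1 (3.36) were the only endothelial genes with the higher score in SSCs. The pan-leukocyte gene Cd48 differed by -22.9 points without overlap and also had an unadjusted p under 0.05. For Robo4, Emcn, Eng and Cd48 the adjusted p was 1 by limma. The dendritic cell gene Cd209a differed by -23.3 points with overlap, and the neutrophil gene Ngp the other way, by 17.1 points without overlap. Both had an unadjusted limma p under 0.05, and neither passed adjustment. The part of residual blood and endothelial cells in the members' scores was not tested.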

How the data were processed

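Callus cells were sorted from 4 experiments, and their RNA was amplified over repeated rounds and hybridized to Affymetrix mouse arrays. The authors normalized the arrays on Gene Expression Commons, and the deposited value of each of 45101 probe sets is its activity score, from -100.03 to 100. The sources used here do not give how probes were summarised. Gene names came from the annotation of the platform, where 34945 probe sets had 1 symbol, 932 had several and 9160 were not listed. The 64 control probe sets were left out. Each of 18193 genes took the values of its highest probe set by mean score, which favours active calls for genes with several probe sets.

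The populations were tested against each other in R 4.3.3 with limma 3.58.1 (eBayes with trend and no block) and Benjamini-Hochberg adjustment over all genes at 0.05, checked on simulated data. Single genes were also tested with exact permutation. Members and lists were chosen with earlier results of these data known. The genes given array by array were the 4 receptor chains, the highest and lowest member of each role, members whose arrays did not overlap, those with the 5 smallest p and the 5 widest ranges over experiments, and those whose probe sets spread over more than 100 points. Eif2ak2, Ifit3 and a second Ciita probe set were added after their values were seen. Arrays of 1 experiment deviated together (correlations 0.399, 0.177, 0.572 and 0.183), so the experiment was taken as a pairing and fitted as a block in an alternative. Precision is limited by the number of arrays. Promoter windows are those of RefSeq (GRCm38.p6).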

Additional observations from a re-analysis of the deposited data

Results flagged for a closer look

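Each of 88 groups of 4 arrays (43 genes and the group median, in both populations) was checked for an array far from the other 3, which chance alone flags in about 1 group in 20, and 2 groups were found. Irf8, a regulator of myeloid development, scored -56.5 on SSC array 1, while the other SSC arrays lay between -86.7 and -82.8. The BCSP array of that experiment was also the highest of its population for Irf8. The other Irf8 probe set did not set SSC array 1 apart, with -91.2 against -92.8, -81.2 and -89.6 on SSC arrays 2 to 4. Parp14 scored -79.3 on BCSP array 4, while the other BCSP arrays lay between -61.4 and -58.0, and the SSC array of that experiment was likewise the lowest of its population. By the other Parp14 probe set, BCSP array 4 (-94.0) lay near BCSP array 2 (-86.6). There SSC array 3 (-94.5) was the lowest SSC array, with -83.5 on SSC array 4.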

How the results depend on the processing

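No member and no gene of the whole table passed an adjusted p of 0.05 under any of 21 alternatives, with the experiment as a replicate block among them (0 of 43), and the block changed no other call. The count of members with an unadjusted p under 0.05, 0 in the main analysis, was 1 by the methods' t-test (Ifngr1), 1 over every probe set (Tap1), 1 without the arrays of experiment 3 (Ifih1) and 0 to 1 when single arrays were left out (Ifit1 without BCSP array 1). Members without overlap, 1 in the main analysis (Ifngr1), were 0 with arrays centred on their median, 0 among genes above 0 on at least 4 arrays, 2 over every probe set, 1 to 2 when single arrays were left out and 3, 3, 2 and 3 without experiments 1, 2, 3 and 4. Fewer arrays separate more easily by construction. The share of all genes without overlap was not counted at those smaller numbers of arrays, so the higher counts are not read as results about the members. The active members, 4 in the main analysis, were 8 with centred arrays and 2 when the probe sets of a gene were averaged. The members' median in SSCs was -27.5 with centred arrays, 30.0 in the filtered genes, -0.641 on an inverse normal scale, -66.3 over every probe set, -64.0 to -56.9 when single arrays were left out (lowest without SSC array 1) and -64.0 without experiment 1. In BCSPs it was -26.7, 26.5 and -0.563 for the first 3 of these. The median difference was -0.311 in the filtered genes, -0.0413 on the inverse normal scale, and -5.66 to 0.095 when single arrays were left out, the last without BCSP array 2. The filter keeps few members, those at the threshold or above, by its construction, and the inverse normal scale has other units. The cause of the other shifts was not tested.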

Other observations

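Several members lie next to each other on the chromosome, by RefSeq order of protein-coding genes, and their mean scores over the 8 arrays are given here as values. Ifit2 and Ifit3 averaged 47.9 and 36.4. Ifitm2, Ifitm1 and Ifitm3 averaged 4.69, -80.8 and -38.6. Psmb9, Tap1, Psmb8 and Tap2, in the class II region of the histocompatibility complex, averaged -70.7, -49.1, -61.3 and -74.2. Parp14, Dtx3l and Parp9 averaged -72.1, -49.7 and -41.7. Oasl2 and Oasl1 averaged -92.0 and -50.9, and Rsad2 and Cmpk2 averaged -75.6 and -40.0. Neighbours therefore lay on the same side of the threshold in each of these runs except that of the Ifitm genes.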
